A study of Mus musculus with 12 samples.

Results

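The livers of hepatocyte Slc25a34 knockout mice (HKO) on a fast-food diet (FFD) were compared with the livers of control mice (WT) on the same diet, over all genes of the deposited count table. The comparison takes 3 HKO and 3 WT libraries, 6 of the 12 mice in the series, taken by genotype and diet. Of 54532 genes in the table, 14277 had enough reads to be tested. All mice were males that carry loxP sites in the promoter and in intron 1 of Slc25a34, so both groups share the floxed allele. At 2 months of age the HKO mice received the adeno-associated virus AAV8-TBG-Cre and the WT mice AAV8-TBG-GFP. The thyroxine binding globulin (TBG) promoter confines the transgene to hepatocytes, and the labels give a reach of over 95% of these cells, so the other cells of the liver keep the gene. Chow was fed for 1 month after injection and FFD for the next 2 months. RNA came from whole liver after a 16 h fast. The composition of FFD is not given in the sources used here. The other 6 mice, HKO and WT on chow, served here to estimate the spread and to compare the knockout difference between diets.

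Slc25a34 belongs to the SLC25 family, whose members carry metabolites, nucleotides and cofactors across the inner mitochondrial membrane. In liver these carriers join fatty acid oxidation, the citric acid cycle, urea synthesis and gluconeogenesis, the pathways that a fast draws on. Whole liver also holds Kupffer cells, endothelial cells, stellate cells and lymphocytes, and interferons from such cells switch on antiviral and antigen presentation genes in hepatocytes and non-parenchymal cells alike.

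The 6 libraries held 14796193 to 24332663 reads in genes. On the first principal component, with 28.4% of the variance, the HKO libraries lay at −7.17, −25.7 and −22.9 and the WT libraries at 20.5, 16.1 and 19.2. HKO mouse 1 was thus the HKO library nearest to WT. The second component, with 22.4%, set WT mouse 2 apart at −33.4 against −10.1 to 19.4 in the other 5. That library scored 1.18 for acute phase genes, where the other 5 scored −0.45 to −0.03, a score being the mean over a list's genes of log2 CPM (read counts scaled to library size) centred on the 6 libraries. WT mouse 3 scored highest for T and NK cell markers.

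The targeted gene was low in all 3 HKO livers. Slc25a34 (ENSMUSG00000040740; mm10 chr4:141618824-141623821, minus strand) had 4, 4 and 18 reads in HKO livers, against 30, 92 and 67 reads in WT livers. Scaled to library size these were 0.269, 0.238 and 0.732 CPM in HKO livers, against 1.73, 4.81 and 3.43 CPM in WT livers, and the groups did not overlap. Its log2 fold change was −2.88 (SE 0.46), and the adjusted p was 0.071 with edgeR (quasi-likelihood, Benjamini-Hochberg adjustment), short of the threshold of 0.05, while DESeq2 called it (adjusted p = 4.3e-06). With a two-sided exact permutation test on FFD p was 0.1, the smallest value 3 against 3 mice allow. On chow its log2 fold change was −3.48, with an adjusted p of 0.024 by the same edgeR fit. The loxP sites flank the start of the gene and leave the later exons in place. In bulk tissue fewer cells of a type and less RNA per cell cannot be told apart. The labels place a loxP site in the promoter. Whether it lies in the 250 bases upstream of the annotated start was not tested. These 250 bases (RefSeq, GRCm38.p6, chr4:141623835-141624084, minus strand, lower case throughout) read as follows.
Slc25a34 promoter: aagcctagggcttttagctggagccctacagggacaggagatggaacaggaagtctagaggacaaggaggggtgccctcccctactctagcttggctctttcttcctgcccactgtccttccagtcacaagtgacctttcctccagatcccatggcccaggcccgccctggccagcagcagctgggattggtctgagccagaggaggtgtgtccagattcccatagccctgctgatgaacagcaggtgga
This stretch had 58.4% G and C and held none of the 3 motifs searched for below.

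Among the 6 other protein-coding genes within 100 kb, Tmem82, a transmembrane protein gene that lies next to Slc25a34 on the same strand, had 12.3, 12.96 and 14.04 CPM in HKO livers, against 17.2, 17.7 and 16.6 CPM in WT livers. All 3 HKO values were below all WT values (log2 fold change −0.39, SE 0.10). Tmem82 shares exonic bases with AI507597 on the opposite strand, and the counting is not stated to use strand. Plekhm2, on the other side, stood at −0.09 (SE 0.10), Ddi2 at 0.08 (SE 0.13), Spen at 0.05 (SE 0.08) and Fblim1 at −0.15 (SE 0.36), all 4 with overlapping groups. Rsc1a1 had 0 reads in the 6 libraries.

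Over all genes the knockout difference on FFD was small, with a median absolute log2 fold change of 0.14 and a median of 0.00. Log2 fold changes were positive in 49.6% and negative in 50.4% of the genes. A single gene, Serpina1e, passed the adjusted p of 0.05, which is 0.007% of the genes tested, and 0 genes passed in the higher direction. An unadjusted p under 0.05 was reached by 1333 genes (9.34%), of which 639 (4.48%) were higher and 694 (4.86%) lower in HKO livers. The 3 HKO values lay all above or all below the 3 WT values in 2348 genes (16.4%), 1153 higher (8.08%) and 1195 lower (8.37%). DESeq2 on the same counts called 139 of 13991 genes (0.993%), 72 higher (0.515%) and 67 lower (0.479%). These percentages are the background for every count of list members given further on. The p-values set each difference against the spread among mice of the same group, estimated over all 12 libraries. Gene lists are described by counts and medians.

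**Figure D1:**
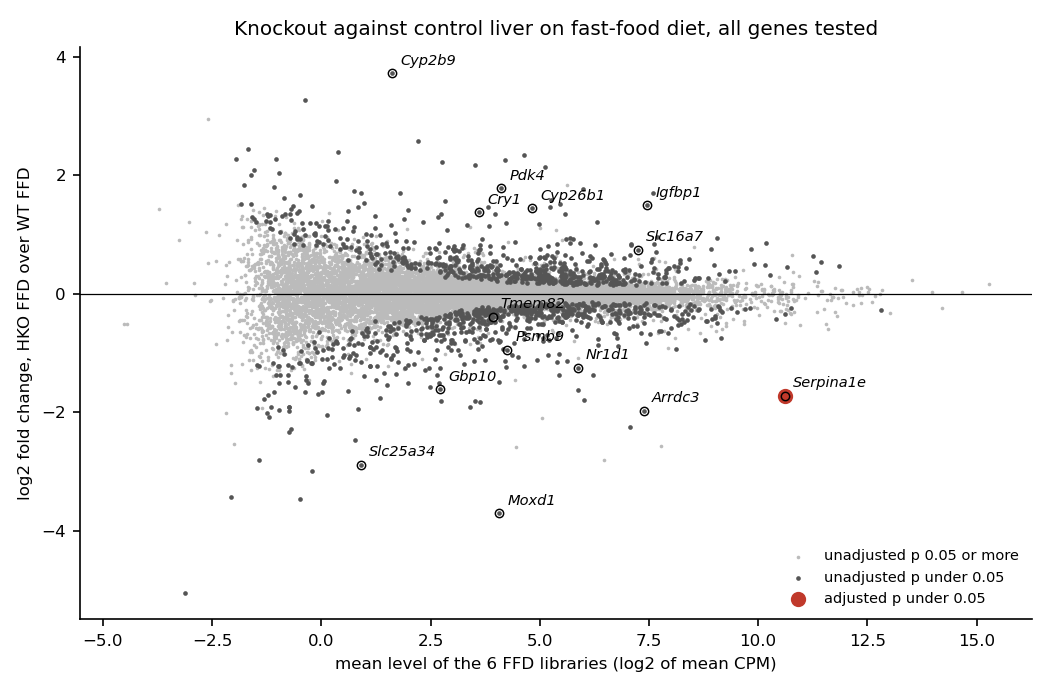
Each point is 1 of the 14277 genes tested: the horizontal axis gives the log2 of its mean CPM over the 6 FFD libraries and the vertical axis the log2 fold change, HKO FFD over WT FFD. Dark points are the 1333 genes with an unadjusted p under 0.05, the red point is Serpina1e, the 1 gene past the adjusted threshold, and circled genes are among those described in the text.

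Serpina1e, one of the mouse copies of the alpha-1-antitrypsin gene that hepatocytes secrete as a protease inhibitor (chr12:103946931-103958975, minus strand), fell in HKO livers. It had 1006, 619 and 558 CPM in HKO livers, against 2550, 2054 and 2599 CPM in WT livers. The highest HKO value was below the lowest WT value, and HKO mouse 1 was the closest to WT (log2 fold change −1.72, SE 0.20, adjusted p = 0.015 with edgeR, quasi-likelihood, Benjamini-Hochberg adjustment). The call ended without WT mouse 1 (adjusted p = 0.0503), HKO mouse 2 (0.19) or HKO mouse 3 (0.071), and with a fit on only the 6 FFD libraries (0.07), by the same test. The log2 fold change was between −2.03 and −1.57 with any 1 FFD library left out.

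The mouse genome holds further copies with nearly the same sequence, so where a read falls decides which copy it is counted for. In GENCODE M21, the coding sequence of Serpina1e was 96.3% identical to that of Serpina1b, 96.4% to Serpina1c, 96.3% to Serpina1d and 91.4% to Serpina1a. Serpina1a is longer (1308 coding bases against 1239), and its unmatched bases were counted as differences. The 91.4% is thus no measure of identity over the shared bases. Among windows of 50 bases along the coding sequence, 61.0% of those of Serpina1e occurred in no other copy, and 80.9% of windows of 100 bases. The read length is not given in the sources used here. Among gap-free windows of 60 bases, Serpina1e differs most from its nearest copy in a window near the end of the coding sequence. This part encodes the reactive loop by which the inhibitor meets its protease. These 60 bases are shown (minus strand of chromosome 12, mm10) because they separate the gene that fell from its neighbours. Capitals in Serpina1e mark bases found in none of the other 4 copies, and capitals in the others mark bases that differ from Serpina1e.
Serpina1e chr12:103947100-103947159: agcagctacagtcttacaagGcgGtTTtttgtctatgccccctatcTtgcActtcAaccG
Serpina1a chr12:103853757-103853816: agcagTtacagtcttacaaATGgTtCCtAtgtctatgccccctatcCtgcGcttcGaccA
Serpina1b chr12:103728324-103728383: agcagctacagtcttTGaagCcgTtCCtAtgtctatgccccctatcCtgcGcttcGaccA
Serpina1c chr12:103895094-103895153: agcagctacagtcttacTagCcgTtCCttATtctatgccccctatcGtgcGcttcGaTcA
Serpina1d chr12:103763762-103763821: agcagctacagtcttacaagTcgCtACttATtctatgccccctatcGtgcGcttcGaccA
Serpina1e has 8 bases of its own in this stretch, and the other copies differ from it at 10 to 12.

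The other copies had much smaller differences between the groups. Serpina1b had 3228, 3372 and 3166 CPM in HKO livers, against 3360, 3537 and 3278 CPM in WT livers, overlapping (log2 fold change −0.06, SE 0.09). Serpina1d had 1743, 1755 and 1656 CPM in HKO livers, against 1902, 1979 and 1632 CPM in WT livers, also overlapping (log2 fold change −0.10, SE 0.11). For Serpina1a (log2 fold change −0.17, SE 0.10) and Serpina1c (log2 fold change −0.19, SE 0.11) the HKO values lay just below the WT values. Per kilobase of gene length, Serpina1e made up 14.4%, 9.18% and 8.78% of the summed level of the 5 tested copies in HKO livers, against 28.2%, 23.8% and 29.4% in WT livers. Serpina1f was not tested for want of reads. Division of reads among the copies was not tested.

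**Figure D2:**
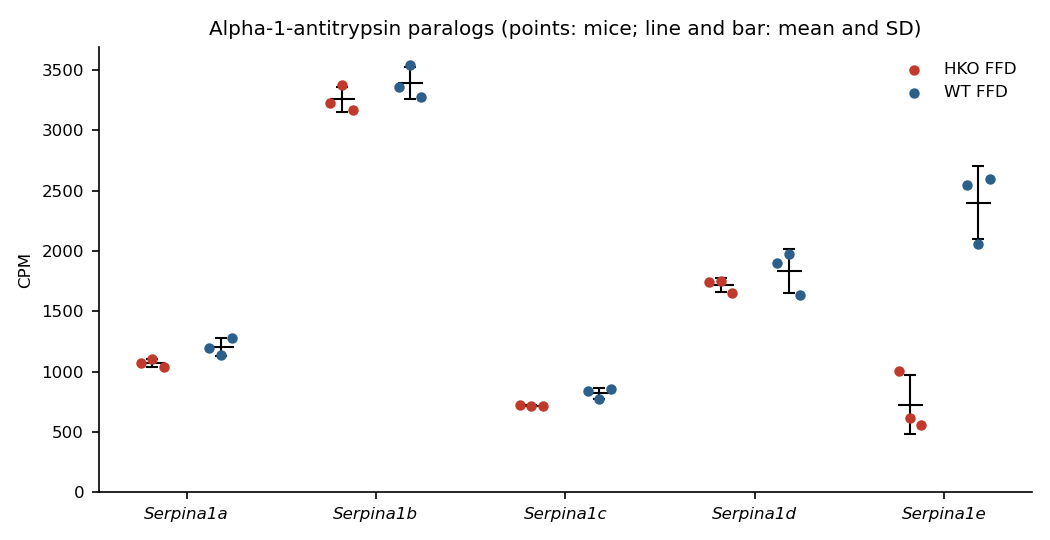
CPM of the 5 tested alpha-1-antitrypsin copies in each FFD mouse, HKO on the left and WT on the right of each pair, with mean and SD as line and bar. The 3 HKO points of Serpina1e, 558 to 1006 CPM, lie below the 3 WT points, 2054 to 2599 CPM, while the groups of Serpina1b and Serpina1d overlap.

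Behind Serpina1e came genes whose groups stood well apart but which missed the adjusted threshold. Slc16a7 encodes a monocarboxylate transporter that moves pyruvate, lactate and ketone bodies and had 191, 206 and 171 CPM in HKO livers, against 98.6, 123.3 and 118 CPM in WT livers. Arrdc3, an arrestin-like adaptor, had 93.6, 46.7 and 62.9 CPM in HKO livers, against 292, 233 and 271 CPM in WT livers. Ahctf1, a nucleoporin gene, had 79.7, 83.7 and 84.9 CPM in HKO livers, against 57.5, 55.1 and 57.4 CPM in WT livers. In each of these the 3 HKO values were close together relative to the gap, with log2 fold changes of 0.74 (SE 0.10), −1.97 (SE 0.29) and 0.55 (SE 0.09). In edgeR (quasi-likelihood, Benjamini-Hochberg adjustment) their adjusted p was 0.061, 0.061 and 0.071, and DESeq2 called all 3 (adjusted p = 3.9e-07, 2.4e-09 and 4.4e-05). Cyp26b1, which breaks down retinoic acid, had 44.5, 41.7 and 37.4 CPM in HKO livers, against 11.3, 13.8 and 19.99 CPM in WT livers (log2 fold change 1.45, SE 0.23, DESeq2 adjusted p = 5.0e-06). Slc16a7 and Ahctf1 share exonic bases with Gm47862 and Gm10518 on the opposite strand.

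The 12 largest positive log2 fold changes among protein-coding genes at an unadjusted p under 0.01 were Cyp2b9, Ddit4, Gadd45b, Pdk4, Sik1, Prkag3, Trp53inp1, Twist1, Slco1a4, Igfbp1, Gja5 and Cyp26b1. Igfbp1 encodes an insulin-like growth factor binding protein, Pdk4 a kinase that shuts pyruvate out of oxidation, Ddit4 an inhibitor of mTORC1 signalling and Sik1 a kinase induced by glucagon and cAMP. Ddit4 had 13.5, 45.3 and 33.2 CPM in HKO livers, against 5.24, 9.98 and 4.05 CPM in WT livers. Trp53inp1, a stress protein that takes part in autophagy, had 120.0, 291 and 480.2 CPM in HKO livers, against 119, 99.3 and 58.1 CPM in WT livers. HKO mouse 1 lay close to the WT mice in Trp53inp1 and was the lowest HKO mouse in Ddit4. Gadd45b, a stress and growth arrest gene, had 7.54, 6.36 and 19.7 CPM in HKO livers, against 1.67, 2.51 and 3.08 CPM in WT livers. Slco1a4, an organic anion transporter of hepatocytes, had 64.2, 83.8 and 46.95 CPM in HKO livers, against 25.7, 27.01 and 15.4 CPM in WT livers (log2 fold change 1.51, SE 0.31). Prkag3, Twist1 and Gja5 were low, at under 4 CPM in each FFD library.

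The 12 largest negative log2 fold changes, chosen the same way, were Moxd1, Slc25a34, Upk3b, Ncmap, Selenbp2, Art2b, Arrdc3, Cyp2c40, Slc37a1, Phlda1, Serpina1e and Cd40. Moxd1, a monooxygenase gene that is more active in male than in female mouse liver, had 1.55, 3.39 and 2.2 CPM in HKO livers, against 37.2, 45.4 and 11.1 CPM in WT livers. Its fitted log2 fold change was the lowest of the 12, at −3.71 (SE 0.99), and WT mouse 3 lay well below the other WT mice. Selenbp2, a selenium-binding protein gene, had 72.6, 55.4 and 12.4 CPM in HKO livers, against 370.3, 103 and 190.5 CPM in WT livers. Phlda1, a pleckstrin-homology domain gene, had 56.9, 14.7 and 15.3 CPM in HKO livers, against 70.8, 116 and 112 CPM in WT livers. HKO mouse 1 again stood nearest to the WT mice in Phlda1, which overlaps Gm28592 on the opposite strand. Upk3b, Ncmap, Art2b, Cyp2c40 and Cd40 had under 6 CPM in every FFD library. None of these genes other than Serpina1e passed the adjusted threshold.

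**Figure D3:**
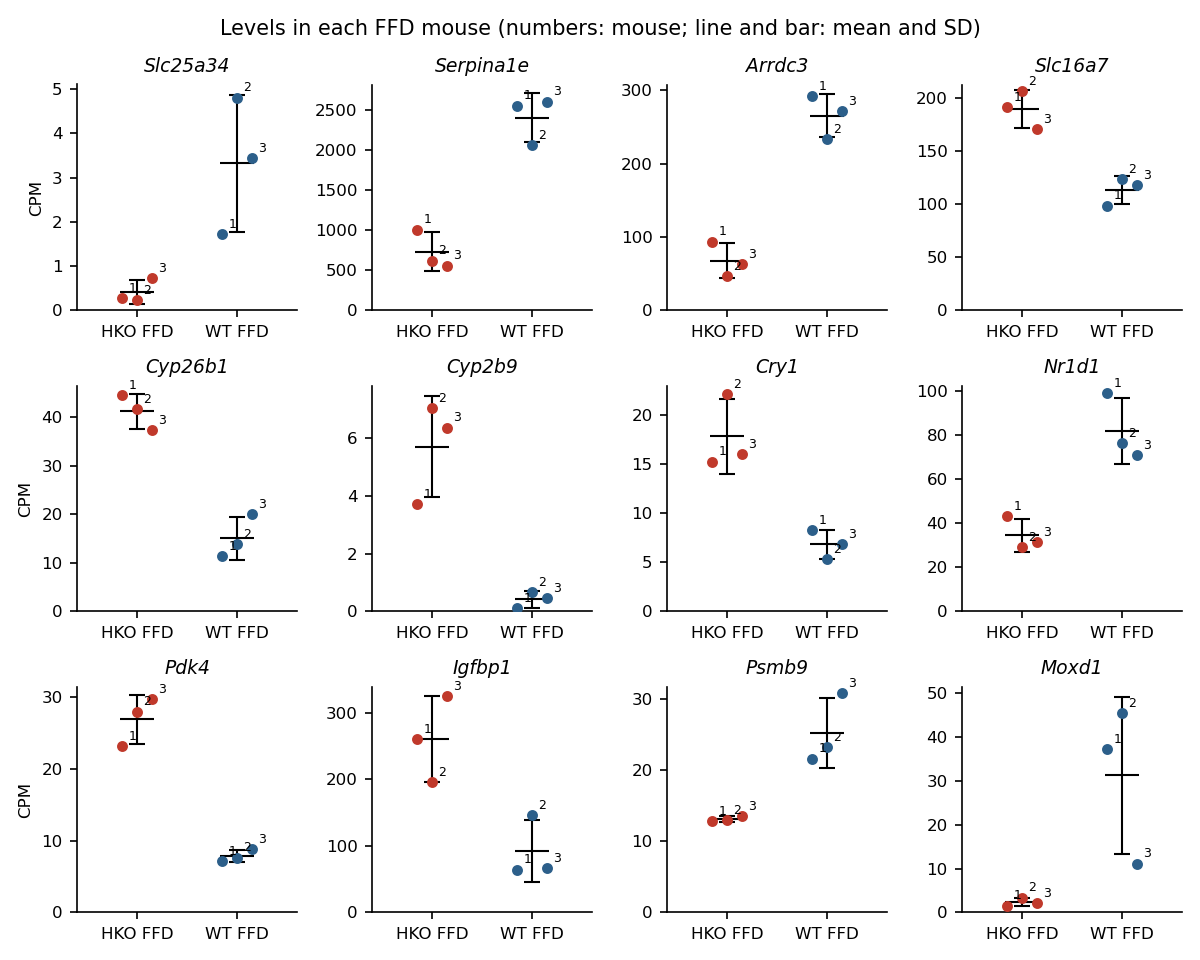
CPM in each FFD mouse for 12 genes described in the text, HKO on the left and WT on the right, with mouse numbers beside the points and mean and SD as line and bar. Each axis starts at 0. In all 12 panels the HKO and WT points do not overlap, as for 2348 genes in all. For panels of genes from the 12 largest increases or decreases this was a condition of their choice. Of these 12 genes Serpina1e alone passed the adjusted threshold.

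Most genes of 4 interferon-related lists had negative log2 fold changes, though no single gene passed the adjusted threshold. Interferon gamma acts through GAS elements, and interferons alpha and beta through a complex with STAT2 and IRF9 that binds the interferon-stimulated response element (ISRE). Among RefSeq promoters of 300 bases (250 upstream, 50 downstream of the start, GRCm38.p6, either strand), the ISRE-type letters, GAAA and again GAAA with any 2 bases between (NN), occurred in 3.84% of the 10560 tested genes with an entry. They occurred in 10 of 11 interferon-gamma inducible GTPase genes with an entry, 15 of 32 type I interferon antiviral genes, 5 of 17 MHC class I genes and 3 of 18 genes of the signalling pathway itself. The GAS-type letters TTCNNNGAA occurred in 8.55% of tested genes and in 6 of 11, 7 of 32, 2 of 17 and 6 of 18 of the same lists. A match is a description of the letters, not evidence of binding. The stretches that follow show the shared letters in genes that had lower values here, and capitals mark the match, which reads as its reverse complement in the Gbp genes, Ifit1 and Stat2.
Igtp chr11:58199512-58199541, plus strand: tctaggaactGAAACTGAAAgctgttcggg
Irgm1 chr11:48871425-48871454, minus strand: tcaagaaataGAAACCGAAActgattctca
Tgtp1 chr11:48992304-48992333, minus strand: tccaggaatcGAAACTGAAAcctacctgac
Gbp3 chr3:142559995-142560024, plus strand: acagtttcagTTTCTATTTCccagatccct
Gbp7 chr3:142530273-142530302, plus strand: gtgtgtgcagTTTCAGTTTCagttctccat
Ifit1 chr19:34640794-34640823, plus strand: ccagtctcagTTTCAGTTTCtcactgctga
Stat2 chr10:128270266-128270295, plus strand: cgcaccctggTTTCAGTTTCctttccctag
The match began 85 bases before the annotated start in Ifit1 and 222 bases before it in Stat2.

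Of the 22 tested receptor, JAK-STAT and IRF genes, 18 had negative log2 fold changes (50.4% over all genes), 6 had an unadjusted p under 0.05 in the lower direction (4.86% over all genes) and 0 in the higher, with a median of −0.19. Without WT mouse 2, 15 of the 22 were negative. Irf1, a transcription factor that interferon gamma induces, had 17.4, 16.7 and 11.9 CPM in HKO livers, against 20.8, 30.8 and 29.4 CPM in WT livers. Stat2, a transcription factor of the type I response, had 55.5, 51.8 and 57.98 CPM in HKO livers, against 72.3, 97.2 and 71.3 CPM in WT livers. The groups did not overlap in either (log2 fold changes −0.83 and −0.54), and Nlrc5, the transactivator of MHC class I genes, stood at −0.34 (SE 0.10). Irf1 shares exonic bases with Gm17334, and Nlrc5 with 9330175E14Rik, on the opposite strand.

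The interferon-gamma inducible GTPases, which attack the vacuoles of intracellular pathogens, had the lowest median of the interferon lists. Gbp6 had 2.42, 2.62 and 2.85 CPM in HKO livers, against 5.75, 5.17 and 7.18 CPM in WT livers. Gbp10 had 2.96, 4.22 and 2.52 CPM in HKO livers, against 9.21, 6.17 and 14.2 CPM in WT livers. Ifi47 had 10.03, 9.21 and 7.85 CPM in HKO livers, against 15.2, 15.7 and 18.8 CPM in WT livers. Each of these was lower in every HKO mouse than in any WT mouse, and Gbp4 likewise, at −1.10 (SE 0.27). Over the 21 genes, 20 log2 fold changes were negative (50.4% over all genes), with a median of −0.56. An unadjusted p under 0.05 was reached by 15, all lower (4.86% over all genes). In 13 the groups did not overlap, all lower (8.37% over all genes), and DESeq2 called 7, all lower (0.479%). Reads of the Gbp genes can be divided among near-identical copies. The same list had a median of −0.03 between the genotypes on chow.

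Antiviral genes of the type I interferon response followed with smaller differences. Ifit1, which binds viral RNA, had 8.21, 7.96 and 4.92 CPM in HKO livers, against 14.7, 17.97 and 13.5 CPM in WT livers. Mx2, a dynamin-like antiviral GTPase, had 2.9, 3.92 and 2.89 CPM in HKO livers, against 5.7, 11.4 and 6.05 CPM in WT livers. Usp18, which removes the ubiquitin-like ISG15 and dampens the receptor, had 6.53, 8.08 and 7.16 CPM in HKO livers, against 11.4, 12.8 and 13.2 CPM in WT livers. Rtp4 had 10.03, 11.8 and 10.6 CPM in HKO livers, against 14.96, 16.5 and 17.8 CPM in WT livers (log2 fold change −0.60, SE 0.11). Groups did not overlap in these 4. Of 44 tested genes, 39 were negative (50.4% over all genes) and 18 had an unadjusted p under 0.05, all lower (4.86% over all genes). Their median was −0.28, and DESeq2 called 5 of them, all lower (0.479% over all genes). The decrease was not shared evenly by the HKO mice. HKO mouse 2 scored 0.01 for this list, against −0.23 in HKO mouse 1, −0.36 in HKO mouse 3 and 0.10 to 0.25 in WT mice. Without HKO mouse 3, 10 of the 44 were positive.

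In antigen presentation by MHC class I all 20 tested genes had negative log2 fold changes. Psmb9, an immunoproteasome subunit, had 12.8, 13.01 and 13.6 CPM in HKO livers, against 21.6, 23.2 and 30.9 CPM in WT livers, with HKO mice nearly equal among themselves. Tap1, a peptide pump into the endoplasmic reticulum, had 27.3, 22.6 and 24.9 CPM in HKO livers, against 43.3, 32.97 and 49.7 CPM in WT livers. Psmb9 and Tap1 lie head to head with overlapping exons on opposite strands, so their reads are not fully separate. Tap2, the partner of Tap1, stood at −0.49 (SE 0.14), and the class I heavy chain gene H2-Q4, one of a near-identical family, at −0.42 (SE 0.12). The list's median was −0.24. In 12 genes the HKO values lay all below the WT values (8.37% over all genes). An unadjusted p under 0.05 was reached by 11, all lower (4.86% over all genes). That last count was 5 without WT mouse 3 and 6 without HKO mouse 3. For the GTPases it was 11 to 16, and for the type I genes 14 to 21, with any 1 FFD library left out. With each gene tested over the whole table, no member of the 4 lists passed the adjusted threshold, the lowest adjusted p being 0.071 for Psmb9 with edgeR (quasi-likelihood, Benjamini-Hochberg adjustment).

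**Figure D4:**
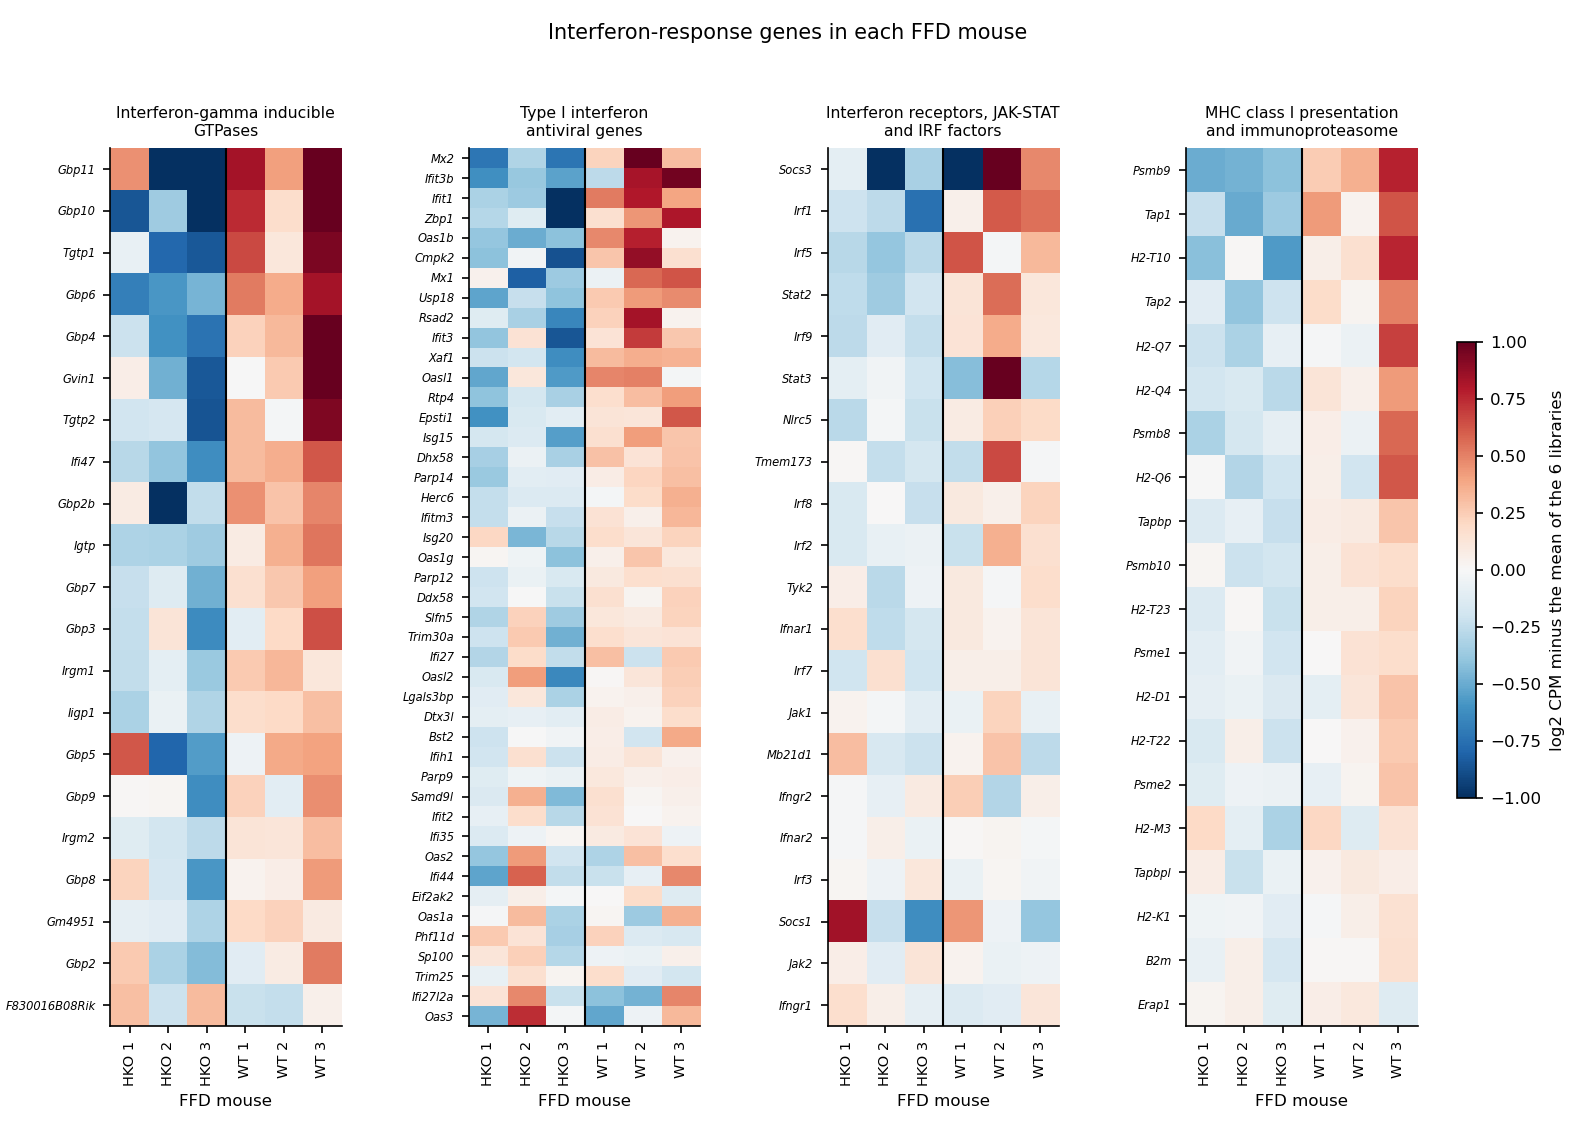
Log2 CPM of tested genes of the 4 interferon-related lists, all but 1 of them, minus each gene's mean over the 6 FFD libraries, HKO mice in the left 3 columns and WT mice in the right 3, with genes ordered by log2 fold change; colours are capped at −1 and 1. Blue, below the mean, prevails in the HKO columns except that of HKO mouse 2 among the type I genes, where the mean was 0.01. WT mouse 3 is the reddest column among the GTPases and MHC class I genes.

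Most lymphocyte markers and MHC class II genes also had negative log2 fold changes. The 25 T and NK cell marker genes are scarce in liver, and the 14 tested ones all had negative log2 fold changes, with a median of −1.04. Scarce genes can pass the read filter through the group where they are higher, so this shared direction is not free of the filter. The stricter filter tested 4 of them, with a median of −0.73. A fit on the 6 FFD libraries alone tested 9, with a median of −0.78. All of these were negative too. None of the 25 was at 0 in all 6 libraries. Their summed level was 15.3 to 20.5 CPM in HKO livers and 29.1 to 34.4 CPM in WT livers. Cd8a, the co-receptor of cytotoxic T cells, had 1, 1 and 3 reads in HKO livers, against 12, 3 and 22 reads in WT livers. Trbc2, the constant part of the T cell receptor beta chain, had 4, 2 and 3 reads in HKO livers, against 12, 14 and 12 reads in WT livers. Counts this low carry a wide counting error, and 6 of the 14 genes had an unadjusted p under 0.05, all lower (4.86% over all genes). That count was 10 without HKO mouse 1, 4 without WT mouse 3 and 3 in a fit on the 6 FFD libraries alone.

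B and plasma cell genes were negative in 11 of 11 tested genes, with a median of −0.94, or −1.42 without HKO mouse 1. The list held 17 genes, so the limit set by the read filter applies here too. Ighm, the immunoglobulin mu chain, had 4.58, 4.4 and 2.85 CPM in HKO livers, against 7.08, 6.84 and 13.8 CPM in WT livers. Jchain, which links secreted IgM and IgA, had 1.15, 1.25 and 0.895 CPM in HKO livers, against 2.24, 1.99 and 4.31 CPM in WT livers. Ighg2c had 0.539, 0.594 and 0.448 CPM in HKO livers, against 1.67, 0.888 and 6.15 CPM in WT livers, and WT mouse 3 was the highest in all 3. The summed level of the list was 12.4 to 21.4 CPM in HKO livers, against 24 to 52.3 CPM in WT livers. Of the 11 tested genes, 6 had an unadjusted p under 0.05, all lower (4.86% over all genes). MHC class II genes, which mark antigen-presenting cells, were negative in 10 of 10 with a median of −0.59. Among them H2-Ab1 had 38.9, 27.2 and 26.2 CPM in HKO livers, against 41.7, 43.8 and 69.2 CPM in WT livers. Of the 10, 3 had an unadjusted p under 0.05, all lower (4.86% over all genes). That count was 1 without WT mouse 3, HKO mouse 2 or HKO mouse 3. It was 6 without HKO mouse 1 and 5 in a fit on the 6 FFD libraries alone. The class II median was −0.37 without WT mouse 3. Dendritic cell markers were less uniform, with 5 of 7 tested genes negative and a median of −0.28. Without HKO mouse 3 that median was 0.12, with 4 of 7 positive. Scored as the mean of centred log2 CPM over each list, HKO mouse 1 did not stand clear of the WT mice. Its score was 0.0742 for B and plasma cells, against −0.00869 in WT mouse 2. For MHC class II its score was 0.107, against −0.0156 in WT mouse 2. For T and NK cells it scored −0.0651, against −0.0643 in WT mouse 2. The part of the immune cell markers in the interferon result was not tested. The summed MHC class I list stood at 3750 to 4100 CPM in HKO and 4160 to 4800 CPM in WT livers.

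Kupffer cell markers differed less, with 13 of 15 negative and a median of −0.24. The scavenger receptor Marco had 7.61, 5.23 and 3.78 CPM in HKO livers, against 20.4, 9.72 and 27.5 CPM in WT livers. Timd4, a receptor for dying cells on resident Kupffer cells, had 7.95, 7.01 and 7.93 CPM in HKO livers, against 12.03, 9.4 and 12.5 CPM in WT livers. Cd163, the haemoglobin scavenger receptor, went the other way at 0.65 (SE 0.30) with overlapping groups. The summed Kupffer level was 781 to 865 CPM in HKO and 861 to 946 CPM in WT livers. Trem2, a receptor of lipid-associated macrophages, had 2.22, 2.26 and 0.692 CPM in HKO livers, against 0.633, 1.04 and 0.666 CPM in WT livers, and the 13 recruited macrophage markers had a median of −0.16, which was 0.03 without HKO mouse 3, 0.05 without WT mouse 3 and −0.09 without WT mouse 2. The chemokine Cxcl10, which interferon gamma induces, had 2.02, 1.13 and 0.814 CPM in HKO livers, against 2.82, 2.51 and 3.69 CPM in WT livers, and it shares bases with Art3 on the opposite strand. Cxcl1, a neutrophil attractant, had 5.99, 9.63 and 3.5 CPM in HKO livers, against 5.41, 100.2 and 6.77 CPM in WT livers, so its log2 fold change of −2.58 (SE 1.21) rests on WT mouse 2 and was 0.04 without it. The same mouse had 949.6 CPM of Saa1, a serum amyloid of the acute phase, against 26.8 to 113 CPM in the other FFD mice. The acute phase list had a median of −0.48 with that library and 0.13 without it.

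Cytochrome P450 genes of the Cyp2a and Cyp2b families had positive log2 fold changes, none past the adjusted threshold. Cyp2b9, a female-biased steroid and drug hydroxylase, had 55, 118 and 156 reads in HKO livers, against 2, 13 and 9 reads in WT livers. Cyp2b10, the classic target of the nuclear receptor CAR, had 2.63, 6.89 and 14.4 CPM in HKO livers, against 0.0575, 1.46 and 2.46 CPM in WT livers. Cyp2a5, a coumarin hydroxylase, had 1181, 1494 and 768 CPM in HKO livers, against 660.5, 707 and 679.8 CPM in WT livers. The groups stood apart in all 3. The list held 9 genes, and the 5 tested were all positive, with a median of 0.87 against 1.71 on chow. Cyp2b9 and Cyp2b10 were scarce in WT livers, so the limit set by the read filter applies to this shared direction too. Without HKO mouse 2 the FFD median was 0.51, with 4 of 5 positive. The count with an unadjusted p under 0.05 was 3, all higher (4.48% over all genes), and became 1 without WT mouse 1. Nr1i3, the gene of CAR itself, had 146, 155 and 143 CPM in HKO livers, against 108, 85.2 and 99.03 CPM in WT livers (log2 fold change 0.60, SE 0.13) and overlaps Tomm40l on the opposite strand. Cyp2c37 had 624, 593 and 616 CPM in HKO livers, against 347, 348 and 385 CPM in WT livers, and Cyp2c38 62.4, 82.7 and 56.03 CPM in HKO livers, against 30.3, 49.7 and 30.4 CPM in WT livers, while Cyp2c40 (−1.95) and Cyp2c70 (−0.83) were lower. The 13 Cyp2c genes as a whole had a median of 0.01. Reads of these families can be divided among near-identical members. Cyp3a11 had 3505, 3445 and 2953 CPM in HKO livers, against 2504, 1758 and 2583 CPM in WT livers, without overlap (log2 fold change 0.53, SE 0.22).

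Male-biased liver genes, which pulsatile growth hormone sustains through STAT5, were negative in 25 of 30, with a median of −0.33 against 0.22 on chow. Moxd1, Selenbp2 and Serpina1e belong to this list, so it was not free of the genes already described. The carboxylesterase Ces4a had 2.36, 0.654 and 1.59 CPM in HKO livers, against 4.72, 2.14 and 4.72 CPM in WT livers. Of the 30, 9 had an unadjusted p under 0.05, all lower (4.86% over all genes). That count was 4 without WT mouse 1, 5 without HKO mouse 2 and 14 without WT mouse 2. The FFD median was −0.15 without WT mouse 1, with 22 of 30 negative, and −0.43 without WT mouse 3, with 20 of 30 negative. Female-biased genes had no common direction, with 6 of 12 positive. An unadjusted p under 0.05 was reached by 4 in the higher direction (4.48% over all genes), Cyp2b9 and Fmo2, a flavin monooxygenase, among them. In the lower direction 2 did (4.86% over all genes), or 1 without HKO mouse 3 or WT mouse 1 and 0 without WT mouse 3. Fmo2 had 45.2, 44.9 and 41.8 CPM in HKO livers, against 10.6, 25.4 and 21.99 CPM in WT livers. Within the growth hormone axis, HKO mouse 1 stood apart from the other 2 HKO mice. Cish, a rapid target of STAT5, had 26.2, 3.39 and 4.56 CPM in HKO livers, against 18.9, 21.9 and 37.3 CPM in WT livers. Bcl6, a repressor that STAT5 turns down, had 11.3, 102 and 57.2 CPM in HKO livers, against 13.5, 11.6 and 13.8 CPM in WT livers. Onecut1 had 92.5, 7.31 and 21.97 CPM in HKO livers, against 56.3, 48.8 and 106 CPM in WT livers. In all 3 genes HKO mouse 1 had a value near the WT range or inside it.

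Genes of the fasting response did not share a direction. PPAR alpha, the fatty acid sensor of hepatocytes, drives oxidation and ketogenesis genes, and 12 of its 36 listed targets had an unadjusted p under 0.05 in the higher direction (4.48% over all genes), while 0 did in the lower. Pdk4 had 23.2, 27.99 and 29.7 CPM in HKO livers, against 7.14, 7.63 and 8.82 CPM in WT livers. Pex11a, which divides peroxisomes, had 343, 342 and 358 CPM in HKO livers, against 226, 222 and 282 CPM in WT livers. The thioesterase genes Acot4 and Acot3, near-identical neighbours that also overlap 4732463B04Rik on the opposite strand, stood at 0.70 (SE 0.15) and 1.35 (SE 0.32). The other targets kept the list's median at 0.06, and the count of 12 became 7 without WT mouse 1. Fatty acid oxidation and ketogenesis genes had 0 of 26 members at an unadjusted p under 0.05 (2, both higher, without HKO mouse 3) and a median of 0.02. Cpt1a, the carnitine transferase that admits fatty acids to mitochondria, had 898, 948 and 813 CPM in HKO livers, against 985, 1149 and 967 CPM in WT livers. Fgf21, a PPAR alpha target and fasting hormone, had 6.19, 3.09 and 5.21 CPM in HKO livers, against 5.99, 3.45 and 4.92 CPM in WT livers, and the groups coincided.

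Of the gluconeogenesis and insulin-response genes, 15 of 24 had positive log2 fold changes. Igfbp1 had 261, 196 and 326 CPM in HKO livers, against 64.2, 146 and 66.7 CPM in WT livers. Pck1, which makes phosphoenolpyruvate, had 3773, 4793 and 4353 CPM in HKO livers, against 3520, 3210 and 2581 CPM in WT livers. Sik1 had 57.2, 81.95 and 156 CPM in HKO livers, against 19.4, 38.4 and 29.2 CPM in WT livers. The 3 HKO values lay above the WT values in each, whereas Fbp1, fructose bisphosphatase, lay below (log2 fold change −0.24, SE 0.08). Over 24 genes the median was 0.20. An unadjusted p under 0.05 was reached by 7 in the higher direction (4.48% over all genes) and 1 in the lower (4.86%). The 7 became 4 without HKO mouse 2, HKO mouse 3 or WT mouse 3, while the median was 0.08 without WT mouse 3 and 0.10 without HKO mouse 2. Ppargc1a, a coactivator of both gluconeogenesis and mitochondrial genes, had 10.1, 15.6 and 11.7 CPM in HKO livers, against 6.96, 7.73 and 9.28 CPM in WT livers.

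The 22 lipid droplet genes had 0.08 as their median, with 5 at an unadjusted p under 0.05, all higher (4.48% over all genes). These were 3 without HKO mouse 3 or WT mouse 2, and a fit on the 6 FFD libraries alone gave 5 higher and 2 lower. Plin4, a droplet coat protein whose exons overlap Hdgfl2 on the opposite strand, had 247, 286 and 219.7 CPM in HKO livers, against 122, 173 and 124 CPM in WT livers. Fitm2, which helps droplets bud from the endoplasmic reticulum, had 163, 158 and 162 CPM in HKO livers, against 125, 120.5 and 140.4 CPM in WT livers. Lipogenesis genes had a median of −0.07, with the desaturase Fads2 at −0.28 (SE 0.10) and the lipogenic factor Srebf1, which overlaps Rai1 on the opposite strand, at −0.44 (SE 0.22). Cholesterol synthesis and uptake genes had a median of 0.06. Among bile acid genes, Abcc3, an export pump to the blood, had 636, 611 and 538 CPM in HKO livers, against 464, 416 and 402 CPM in WT livers. The sterol pump Abcg8 had 219.7, 244 and 235 CPM in HKO livers, against 436, 284 and 293 CPM in WT livers, and its exons overlap those of Abcg5 on the opposite strand.

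The clock genes held members in both directions. Cry1, a repressor of the clock, had 15.2, 22.1 and 15.99 CPM in HKO livers, against 8.29, 5.33 and 6.87 CPM in WT livers. Nr1d1, the repressor REV-ERB alpha, had 43.2, 29.2 and 31.4 CPM in HKO livers, against 98.9, 76.2 and 70.8 CPM in WT livers, and it overlaps Thra on the opposite strand. Per1, a partner of the cryptochromes, had 77.7, 90.8 and 95.00 CPM in HKO livers, against 64.5, 60.98 and 48.2 CPM in WT livers. Each of the 3 separated the groups. Of 20 clock genes, 6 had an unadjusted p under 0.05 in the higher direction (4.48% over all genes) and 3 in the lower (4.86%). DESeq2 called 3 higher (0.515% over all genes) and 1 lower (0.479%). The E-box letters CACGTG that CLOCK and BMAL1 bind occurred in the RefSeq promoters of 5 of 17 clock genes and 11.6% of tested genes. The hour at which livers were taken is not given in the sources used here, and its part in these values was not tested.

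Mitochondrial gene lists had medians near 0. Of 45 tested SLC25 and uncoupling protein genes, 1 had an unadjusted p under 0.05 in the higher direction (4.48% over all genes). In the lower direction 2 did (4.86% over all genes), 1 of them Slc25a34 itself. Neither count exceeded the share over all genes, and each was between 1 and 3 with any 1 FFD library left out. Slc25a32, the folate and FAD carrier, had 58.9, 68.3 and 66.97 CPM in HKO livers, against 45.01, 49.4 and 51.2 CPM in WT livers. Slc25a45 had 15.6, 14.7 and 11.96 CPM in HKO livers, against 18.3, 20.4 and 16.6 CPM in WT livers, and the list's median was 0.02. Respiratory chain and ATP synthase genes had a median of −0.03 over 80, with log2 fold changes between −0.23 and 0.23. Of these, 57 were negative (50.4% over all genes), and 49 to 62 with any 1 FFD library left out. An unadjusted p under 0.05 was reached by 1 gene, in the lower direction (4.86% over all genes). Citric acid cycle genes had a median of 0.01 over 19, where Idh2, the mitochondrial NADP-linked isocitrate dehydrogenase, had 142, 157 and 127 CPM in HKO livers, against 92.9, 112 and 113 CPM in WT livers. Mitochondrial biogenesis and dynamics genes had a median of 0.04 over 19. In 6 of these the HKO values lay all above the WT values (8.08% over all genes), and in 0 all below. An unadjusted p under 0.05 was reached by 2, both higher (4.48% over all genes).

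Hepatocyte identity genes had a median of −0.05. Of 19, 5 had an unadjusted p under 0.05 in the lower direction (4.86% over all genes) and 1 in the higher (4.48%). The 5 became 1 without HKO mouse 2, 2 without HKO mouse 3 or WT mouse 1, and 3 without WT mouse 2 or WT mouse 3. The pioneer factor Foxa2 had 39.9, 15.2 and 17.4 CPM in HKO livers, against 42.2, 51.6 and 53.1 CPM in WT livers, with HKO mouse 1 near the WT mice. Endoplasmic reticulum stress genes were negative in 18 of 20, with a median of −0.30, or −0.19 without WT mouse 2. Of the 20, 1 had an unadjusted p under 0.05, in the lower direction (4.86% over all genes). That count was 8 in a fit on the 6 FFD libraries alone. It was 0 without HKO mouse 2, HKO mouse 3 or WT mouse 2, and 2 without WT mouse 3. The gene was the calcium-binding chaperone Calr, with 479.7, 414 and 445 CPM in HKO livers, against 555, 626 and 555 CPM in WT livers. Stellate cell and fibrosis genes had a median of 0.16, which was 0.02 without HKO mouse 1, 0.08 without HKO mouse 2 or WT mouse 1, 0.26 without WT mouse 3 and 0.36 without HKO mouse 3. The collagen Col1a1 had 13.8, 19.1 and 3.66 CPM in HKO livers, against 5.01, 8.83 and 7.33 CPM in WT livers, with wide overlap. Endothelial markers had a median of 0.05, pericentral genes −0.05 and periportal genes −0.07, close to the 0.00 of all genes tested.

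**Figure D5:**
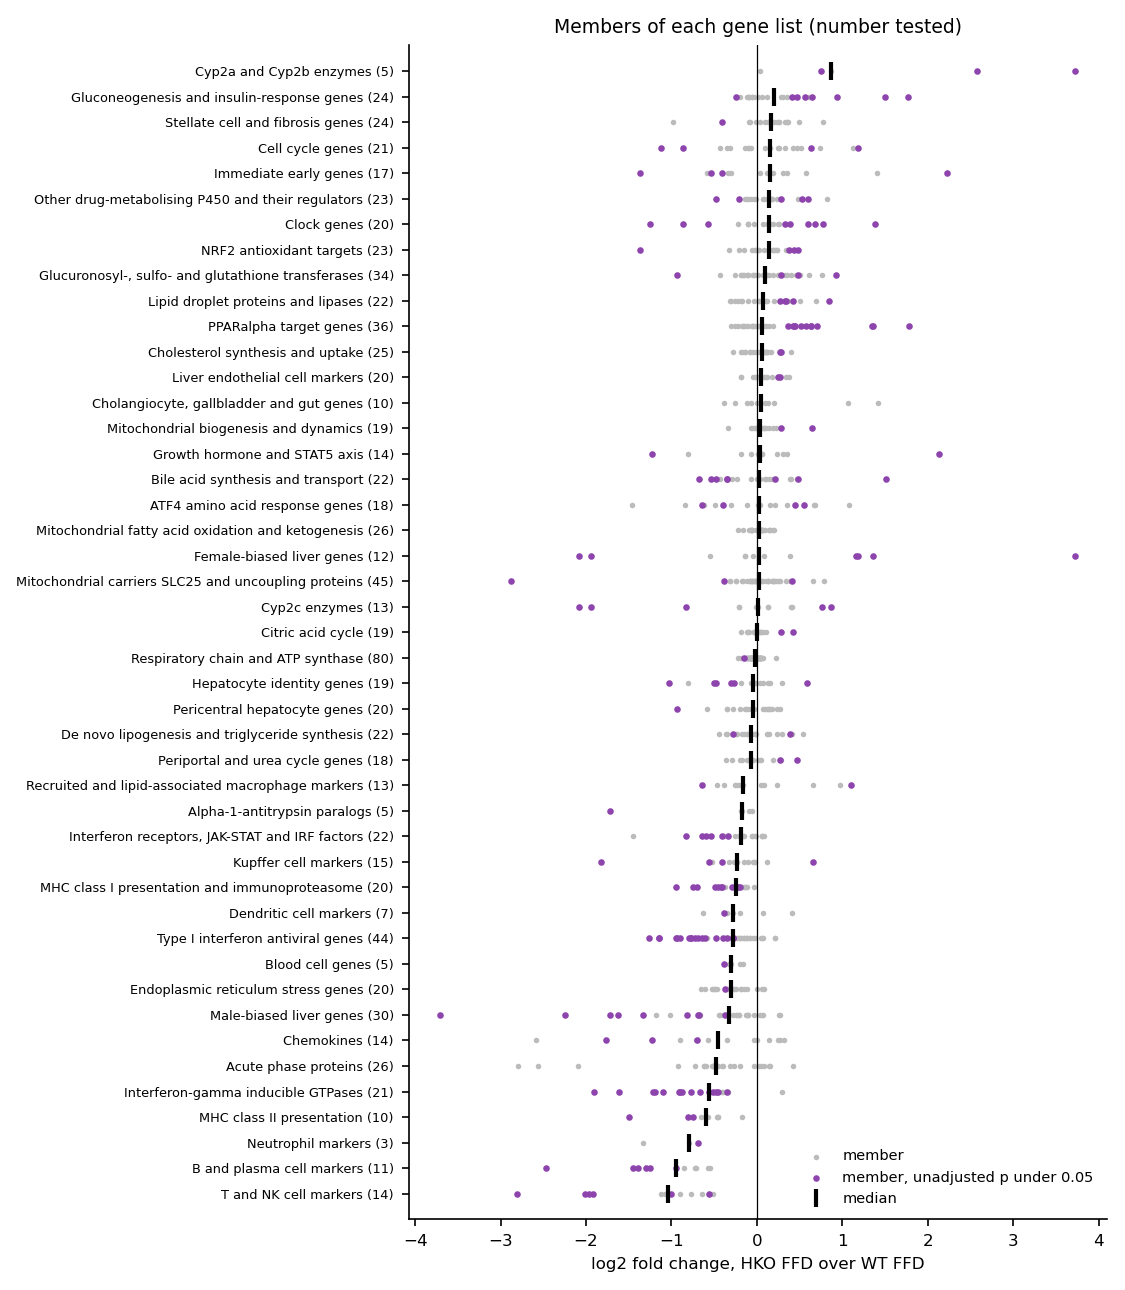
Log2 fold change, HKO FFD over WT FFD, of each tested member of the 45 gene lists, with the list's median as a bar and members at an unadjusted p under 0.05 in purple; lists are ordered by median and the number tested is in brackets. The lymphocyte, neutrophil, MHC class II and GTPase lists lie at the bottom, the Cyp2a and Cyp2b enzymes at the top, and mitochondrial lists near 0; the neutrophil median of 3 genes, −0.80, was −0.31 without WT mouse 2.

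Whether the knockout difference depended on diet was tested by subtracting the HKO minus WT log2 difference on chow from that on FFD. No gene passed (0% at an adjusted p under 0.05), 1293 genes (9.06%) had an unadjusted p under 0.05 and the lowest adjusted p was 0.23 with edgeR (quasi-likelihood, Benjamini-Hochberg adjustment). DESeq2 called 95 genes. The gene with the smallest p was Serpina1e, whose log2 fold change was −1.72 on FFD and 0.04 on chow (difference −1.76, SE 0.27). On chow it had 4052, 5184 and 5072 CPM in HKO livers, against 4298, 4737 and 4859 CPM in WT livers. C4a, a complement gene with the near-identical copy C4b, followed with −0.66 on FFD and 1.28 on chow (difference −1.94, SE 0.34), and Odf3b with −0.01 and −0.85 (difference 0.85, SE 0.15). T and NK cell markers had a median of −1.04 on FFD against 0.54 on chow, and MHC class I genes −0.24 against 0.06. The differences between these list medians were not tested.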

How the data were processed

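The authors deposited unnormalized gene counts, 1 column per mouse, made with STAR and featureCounts 1.5.0-p3 on build mm10, per the submitters' processing notes. The STAR version, strand setting and annotation release are not given in the sources used here. Coordinates are those of the table. Reads of genes overlapping on opposite strands, and of near-identical families (Serpina1, Gbp, Cyp2a, Cyp2b, Cyp2c, Acot, Mup, H2-Q, C4a and C4b), may be misassigned. Besides those marked in the text, opposite-strand exon overlaps affect Usp18, Ifi47, Tap2, H2-Q4, Cish, Bcl6, Fitm2, Spen, Gja5, Slc37a1 and Serpina1c, and same-strand overlaps Gbp4, Gbp6, Gbp10, Rtp4, Ddi2 and Onecut1.

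Columns were matched to mice by name, and 0 columns were left unused. Counts were filtered with filterByExpr, scaled by trimmed mean of M values (TMM) and fitted in R 4.3.3 with edgeR 4.0.16's quasi-likelihood model, 1 mean per group over all 12 libraries. HKO FFD was tested against WT FFD, and the HKO minus WT difference was compared between diets. P-values were two-sided with Benjamini-Hochberg adjustment over all genes at 0.05. Levels are edgeR's CPM on TMM-adjusted library sizes, and scores used log2 CPM with a prior count of 2. The fit was tested on simulated data with known changes. DESeq2 1.42.0, other scalings, filters, dispersion settings, left-out libraries and a replicate block were the alternatives. Libraries of a group were compared by chi-square (14.2 to 35.3 per degree of freedom between FFD libraries of a group), and none were identical.

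The comparison and the 45 gene lists were chosen with earlier results of these data known, so they are no independent support. Genes are named if they are Slc25a34 or protein-coding within 100 kb of it, past the threshold, among the 12 largest increases or decreases (protein-coding, unadjusted p under 0.01, at least 1 CPM on average in one group, no overlap), among the 10 with the smallest DESeq2 adjusted p, or among the 4 with the smallest p of a list. The Serpina1 copies, 6 further genes (Ppargc1a, Pdk4, Igfbp1, Col1a1, Trem2 and Fgf21) and the 3 with the smallest p for the diet difference complete the rule. Some genes the rule would name are not reported here, but count in their lists. The genes with printed promoter stretches were chosen from the GTPase list and the named interferon genes.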

Additional observations from a re-analysis of the deposited data

How the results depend on the processing

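The count of genes past the adjusted threshold between HKO and WT livers on FFD was 1 (0 higher, 1 lower) and 1 also with relative log expression size factors and with the stricter filter. It was 306 (154 higher, 152 lower) with no filter on low counts, where 27184 genes entered and edgeR's prior degrees of freedom were 48.9 against 4.6. DESeq2 gave 139 (72 higher, 67 lower), robust dispersion 2 (1 higher), and a fit on only the 6 FFD libraries 2 (2 higher, 0 lower). Leaving out each of the 12 libraries gave 0 to 30 (higher 0 to 17, lower 0 to 13), the highest without HKO FFD mouse 1. Genes whose knockout difference depended on diet numbered 0, but 238 with no filter, 95 by DESeq2 and 0 to 81 with a library left out, the highest without HKO chow mouse 2. The causes were not tested.

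Mouse numbers did not pair the samples: the correlations of same-numbered deviations were −0.03, 0.12 and 0.02. The replicate block gave 2 calls (0 higher, 2 lower) and 1 gene for the diet difference.

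Some log2 fold changes turned sign when 1 FFD library was left out. Over the 6 left-out libraries these ran from −3.09 to 0.043 for Cxcl1, −1.48 to 0.22 for S100a8, −0.78 to 0.020 for Hba-a2, −0.57 to 0.027 for Hba-a1, −0.025 to 0.21 for Ddi2, −0.012 to 0.088 for Spen, −0.65 to 0.36 for Tff3, −0.31 to 0.18 for Fblim1, −0.042 to 0.016 for Odf3b and −0.18 to 0.25 for Fgf21. With no filter Odf3b stood at 0.0012. Of all values for named genes under the alternatives, 3538 kept direction and side of the threshold, 149 newly passed it, 4 no longer did and 15 turned sign. Depth limits genes such as Cd8a, with 1 to 3 reads in HKO and 3 to 22 reads in WT livers on FFD.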
